A study of Mus musculus with 6 samples.

Results

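The Notch receptors Notch1, Notch2, Notch3 and Notch4, the ligands Jag1, Jag2 and Dll4, and the target genes Hes1, Hey1 and Heyl were followed in the whole uterus of pregnant mice with and without Sox17 in the uterine epithelium. These 10 genes were chosen by name, with earlier results of these data known, and their probes were taken from the array through their transcript accessions. They have 12 probes among 55681 on the array. All 10 passed the filter on low signal, as did 14847 of the 20145 genes named on the array. RNA came from 3 Sox17f/f and 3 Sox17ed/ed females, 1 array each, at gestation day (GD) 3.5, after females of 8 to 10 weeks had been mated to fertile males and their embryos flushed from the horns. Both groups carry the floxed Sox17 alleles. Sox17ed/ed females carry in addition 1 copy of LtfiCre, an iCre recombinase driven from the lactoferrin (Ltf) locus that is active in the uterine epithelium, whereas Sox17f/f littermates lack it and are labelled as wild type. The deletion does not reach the endothelium, where Sox17 is also expressed, and the whole uterus holds epithelium, stroma, muscle, vessels and blood cells together.

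Notch receptors are membrane proteins that are activated by ligands of the Jagged and Delta families on a neighbouring cell. Ligand binding leads to cleavage of the receptor, first by an ADAM protease and then by gamma-secretase, and the freed intracellular domain enters the nucleus, where it joins the DNA-binding protein RBPJ and turns on genes such as those of the Hes and Hey families of transcriptional repressors. In most tissues NOTCH1, NOTCH4 and DLL4 are known from vascular endothelium and NOTCH3 from pericytes and vascular smooth muscle, while receptors and Jagged ligands are also found in epithelium and stroma.

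Values are quantile normalized log2 signals, and differences are Sox17ed/ed minus Sox17f/f on that log2 scale, so they compare 1 probe between genotypes. Where a gene is set against another gene or a marker list within each array, only the difference between genotypes is read, since levels of different probes are not comparable. A gene was called when limma gave an unadjusted p under 0.01 with a change of at least 1.4-fold in either direction, the thresholds of the study's methods, and the adjusted p printed beside each gene is limma's, by Benjamini-Hochberg over all 14847 genes. The median SD between arrays of a genotype was 0.11. All 6 arrays were on 1 slide, the Sox17f/f arrays in slide row 1 and the Sox17ed/ed arrays in slide row 2, so slide row and genotype cannot be told apart. In both rows, replicates 1, 2 and 3 lay in slide columns 1, 2 and 3. Arrays of 1 genotype correlated at 0.990 to 0.995 across the tested genes, and arrays of different genotypes at 0.963 to 0.965. Sox17 itself, a transcription factor of the SOX family, stood at 12.21, 12.07 and 12.22 in Sox17f/f and at 9.75, 9.59 and 9.81 in Sox17ed/ed uteri. It fell by 2.45 on the log2 scale (SE 0.09, limma adjusted p = 2.7e-05), in the direction of the labels. The uterine markers Esr1 and Pgr, the estrogen and progesterone receptors, were well above background on every array and differed by -0.04 and 0.01. A dimmer Esr1 probe differed by -0.32 with no overlap of the genotypes, and another by -0.01. Of 6 uterus markers 1 was called, against 12.5% of all genes: Emx2, higher by 0.71 (limma adjusted p = 0.0044). Wnt7a (0.88), Hoxa10 (0.34) and Hoxa11 (0.17) were also higher. The genotypes did not overlap for 4 of the 6, all higher, against 40.6% of all genes (19.6% higher).

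Of the 10 genes, 4 were called, and all 4 were lower in Sox17ed/ed uteri: the receptors Notch1 and Notch3 and the target genes Hey1 and Heyl. Over all genes tested, 12.5% were called, 6.47% lower and 6.04% higher. None of the 3 ligands was called. At an adjusted p under 0.05 and no fold threshold, Notch2 joined as the only higher one, for 5 of 10 against 18.9% of all genes (10.1% lower, 8.84% higher). The 3 arrays of each genotype did not overlap for 6 of the 10 genes, 5 lower and 1 higher, against 40.6% of all genes (21.0% lower, 19.6% higher). The median log2 difference of the 10 was -0.20, and that of all genes was 0.00. With 3 arrays against 3, the exact two-sided permutation test of a single gene cannot give a p under 0.1, and it gave that smallest value for Notch1, Notch2, Notch3, Jag1, Hey1 and Heyl.

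The receptors did not move together. Notch1 and Notch3 were lower in Sox17ed/ed uteri, Notch2 was higher, and Notch4 stayed within the spread of its arrays. NOTCH1 is a broadly expressed receptor with a central part in vessel growth and epithelial cell fate. Its brighter probe (A_55_P2171897) read 8.15, 7.90 and 7.82 in Sox17f/f and 7.06, 7.28 and 7.33 in Sox17ed/ed uteri. Every Sox17ed/ed array was below every Sox17f/f array. Notch1 fell by 0.74 (SE 0.12, 95% confidence interval -1.02 to -0.45, limma adjusted p = 0.0088), a 1.67-fold change. The second Notch1 probe (A_55_P2047168) was well above background on only 2 of the 6 arrays, both Sox17f/f, and was not tested. Its processed signals were 13.8, 15.7 and 19.4 in Sox17f/f and 4.0, 14.1 and 13.7 in Sox17ed/ed uteri.

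Notch3 encodes the receptor best known from the mural cells that wrap small vessels. It read 11.88, 11.60 and 11.82 in Sox17f/f and 10.96, 11.11 and 11.31 in Sox17ed/ed uteri. The groups were again apart, with the highest Sox17ed/ed array, replicate 3, nearest to the control range. Notch3 fell by 0.64 (SE 0.12, 95% confidence interval -0.93 to -0.35, limma adjusted p = 0.0145), or 1.56-fold.

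Notch2, which like the ligand gene JAG1 is mutated in Alagille syndrome, went the other way. Its brighter probe (A_52_P289213) gave 11.01, 11.04 and 11.14 in Sox17f/f and 11.33, 11.40 and 11.46 in Sox17ed/ed uteri, with no overlap. The difference was 0.33 (SE 0.07, 95% confidence interval 0.16 to 0.50, limma adjusted p = 0.0242), which is 1.26-fold and so under the fold threshold. The dimmer Notch2 probe (A_55_P1982793), with processed signals of 22.8, 28.7 and 35.3 in Sox17f/f and 38.1, 37.6 and 41.2 in Sox17ed/ed uteri, moved the same way. It was higher by 0.54 (SE 0.09) and was called in the fit over the 32735 probes (limma adjusted p = 0.0163 over all probes), in which 9.85% of probes were called. Whether Notch2 counts as called thus depends on the probe, and both probes had the same direction.

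Notch4, a receptor largely restricted to endothelium, read 9.68, 9.72 and 9.81 in Sox17f/f and 9.76, 9.90 and 9.65 in Sox17ed/ed uteri. Its arrays overlapped, and the difference was 0.03 (95% confidence interval -0.18 to 0.24, limma adjusted p = 0.819), an interval that leaves out a change of 1.4-fold in either direction.

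Because the receptors share the arrays, the change of 1 receptor relative to another could be taken within each array, for 6 pairs. These pairs restate the changes of the single receptors. Relative to Notch2, the difference between genotypes was -1.07 for Notch1, and relative to Notch3 it was 0.97 for Notch2. Relative to Notch4 it was -0.77 for Notch1, -0.68 for Notch3 and 0.30 for Notch2. Each of these 5 pairs had the smallest exact permutation p this design allows, 0.1, or 0.12 after Benjamini-Hochberg adjustment over the 6 pairs, so none passes a threshold of 0.05. The remaining pair, Notch1 relative to Notch3, differed by -0.09 between genotypes (exact permutation p = 0.4).

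None of the 3 ligands was called by limma, against 12.5% of all genes. An unadjusted p under 0.05 was found for 0 of them, against 5026 of the 14847 genes. With 3 genes, these counts do not set the ligands apart from all genes. Jag1, a Jagged ligand of vessel, muscle and epithelium, read 9.41, 9.14 and 9.22 in Sox17f/f and 9.12, 9.01 and 9.098 in Sox17ed/ed uteri. The lowest control array, replicate 2, lay just above the highest Sox17ed/ed array, and the difference was -0.18 (95% confidence interval -0.40 to 0.04, limma adjusted p = 0.215). Jag2, its close relative, read 8.05, 8.16 and 7.85 against 7.91, 7.99 and 7.90, a difference of -0.09 (95% confidence interval -0.31 to 0.14, limma adjusted p = 0.565). The intervals of Jag1 and Jag2 both leave out a change of 1.4-fold. Dll4, the Delta ligand of arterial and sprouting endothelium, read 6.86, 6.59 and 7.15 in Sox17f/f and 6.69, 6.34 and 6.87 in Sox17ed/ed uteri. Its difference of -0.23 (limma adjusted p = 0.444) has a 95% confidence interval from -0.69 to 0.23, wide enough to hold a drop of the size of Notch3's or none at all.

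Among the target genes, Hey1 and Heyl were lower in Sox17ed/ed uteri, and Hes1 could not be measured well. Hey1, a repressor with a known part in the arterial endothelium and the heart, read 9.75, 9.54 and 9.61 in Sox17f/f and 8.92, 8.98 and 9.38 in Sox17ed/ed uteri. The groups were apart, with Sox17ed/ed replicate 3 well above the other 2. Hey1 fell by 0.54 (SE 0.14, 95% confidence interval -0.87 to -0.21, limma adjusted p = 0.0412), or 1.45-fold. This call is near its thresholds and was lost in 9 of 16 other settings, among them normexp background correction (-0.44) and the removal of any 1 of the 3 Sox17f/f arrays (-0.59 to -0.48), always with the same direction.

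Heyl, a relative of Hey1 that is enriched in mural cells, read 9.92, 9.97 and 9.65 in Sox17f/f and 9.24, 9.39 and 9.06 in Sox17ed/ed uteri. All 3 Sox17ed/ed arrays were lower, and Heyl fell by 0.61 (SE 0.12, 95% confidence interval -0.91 to -0.31, limma adjusted p = 0.0205), or 1.53-fold. It was no longer called without Sox17f/f replicate 1 (-0.57, limma adjusted p = 0.0731) or with an ordinary linear model in place of limma's moderation.

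Hes1, a widely used readout of Notch activity, is represented by 1 probe that was well above background on 3 of 6 arrays, Sox17f/f replicates 1 and 2 and Sox17ed/ed replicate 3. Its processed signals were 21.6, 22.4 and 10.5 in Sox17f/f and 14.1, 20.9 and 22.8 in Sox17ed/ed uteri, close to the lowest signals well above background, which were between 13.1 and 18.0. The difference of 0.49 (SE 0.60, 95% confidence interval -0.97 to 1.95, limma adjusted p = 0.618) rests on Sox17f/f replicate 3 and turns to -0.24 without it. A change of Hes1 in either direction was not detectable with this probe.

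**Figure D1:**
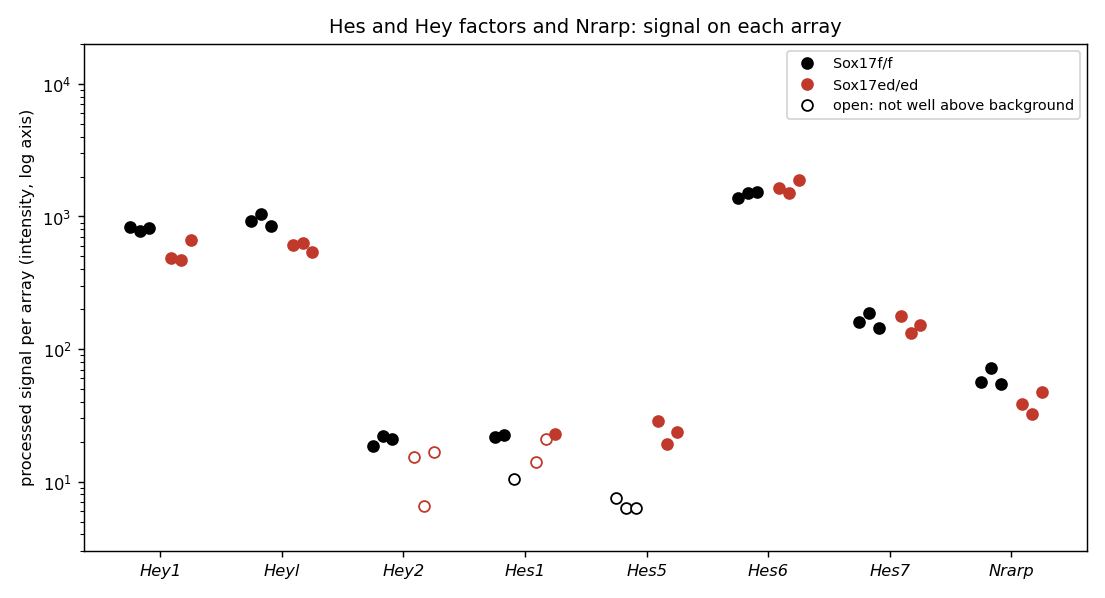
Processed signal before normalization between arrays (y axis, intensity on a log axis) of the Hes and Hey factors and Nrarp on each Sox17f/f (black) and Sox17ed/ed (red) array; open circles mark spots not well above background. Hey1 and Heyl lie lower in red, Hes5 rises from open black circles to filled red ones, Hey2 goes from filled black to open red circles, and Hes1 mixes both.

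The other Notch pathway genes were taken from a list of 56, of which 53 are named on the array and 50 were tested. Rbpjl, Hes2 and Hes3 did not pass the filter. Only 2 of the 50 were called, Hes5 higher and Fbxw7 lower, against 12.5% of all genes. Hes5 passed the filter only through the Sox17ed/ed arrays. Where all 6 arrays had to be well above background, 0 of 47 were called. At an adjusted p under 0.05, 4 passed, 2 in each direction, against 18.9%. At an unadjusted p under 0.05 there were 20 of 50, against 5026 of the 14847 genes, and the arrays of the genotypes were apart for 28 of 50, against 40.6%. The median log2 difference was -0.03, or -0.02 with the 3 genes that were not well above background in 1 genotype (Hes5, Hey2 and Dner) at their bounds.

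Hes5, a Hes repressor best known from neural progenitors, was not well above background on any Sox17f/f array, where its processed signals were 7.58, 6.28 and 6.35. It was well above background on all 3 Sox17ed/ed arrays, at 28.9, 19.1 and 23.6. Hes5 therefore passed the filter only through the Sox17ed/ed arrays, and its level in Sox17f/f has only an approximate upper bound. Set against the lowest signal well above background on each Sox17f/f array, it was 2.01-fold higher in Sox17ed/ed uteri. Some spots above that lowest signal of their array were not well above background, so the bound is approximate. The limma fit used the measured dim signals, with a log2 difference of 2.01 (limma adjusted p = 0.0037), and does not test that bound. The call was lost with normexp background correction, which pulls dim values together (0.39). Hey2, the third Hey factor, was the reverse in its detection calls, well above background on 3 of 3 Sox17f/f and 0 of 3 Sox17ed/ed arrays. Its signals were so near the limit that the bound is 1.01-fold lower. The fit on the measured signals gave -0.48 (limma adjusted p = 0.380). Hey2 and the genes named below without a call other than Psenen, Rfng, Neurl1b, Ctbp1, Hes6 and Dlk1 were picked after their values had been seen. Hes6, an atypical Hes factor and the brightest of this list, was 0.26 higher (limma adjusted p = 0.0582).

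Nrarp, a feedback inhibitor that binds the Notch intracellular domain, read 5.94, 6.17 and 5.59 in Sox17f/f and 5.27, 5.14 and 5.55 in Sox17ed/ed uteri. The groups were narrowly apart. Its difference of -0.58 (SE 0.18, limma adjusted p = 0.0698) has the size of those of Hey1 and Heyl but was not called. It was called in 2 of 16 other settings, the 75th percentile shift and the fit without Sox17f/f replicate 3, and its sign was negative in all 16.

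Promoter windows were searched for the short core at which RBPJ, through which Notch acts, binds DNA. The Hes5 and Hey2 windows are shown because they hold it more than once, and those of Notch1, Notch3 and Notch2 because these receptors differed between genotypes. The core searched was TGGGAA, on both strands, so that it reads TTCCCA on the other. Another motif searched was ATTGTT, a core bound by SOX factors. RefSeq promoter windows (GRCm38.p6, 250 bases before to 50 bases after the start site, written in the direction of the gene) were matched for 7 of the 10 genes, the receptors and ligands but not Hes1, Hey1 and Heyl, and for 5 of the 7 other target genes. The RBPJ core is in 25.56% and the SOX core in 10.72% of all 32841 such windows. Among the 7 windows of receptors and ligands, 0 hold either core. The Hes5 and Hey2 windows hold the RBPJ core 2 times each, in opposite orientations. Its first base lies 226 and 82 bases before the start site of Hes5, and 207 and 3 bases before that of Hey2. The Hes7 window holds 1 RBPJ core, 180 bases before the start site, and the Nrarp window 1 SOX core, 55 bases before it. Capitals mark the RBPJ core.
Hes5, chr4:154960673-154960972, plus strand: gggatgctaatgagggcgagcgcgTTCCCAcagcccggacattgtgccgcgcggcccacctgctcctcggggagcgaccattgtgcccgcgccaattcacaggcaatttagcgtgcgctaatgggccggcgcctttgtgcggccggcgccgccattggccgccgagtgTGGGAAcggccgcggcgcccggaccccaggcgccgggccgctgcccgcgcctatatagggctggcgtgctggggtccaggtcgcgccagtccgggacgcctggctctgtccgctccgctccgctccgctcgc
Hey2, chr10:30842734-30843033, minus strand: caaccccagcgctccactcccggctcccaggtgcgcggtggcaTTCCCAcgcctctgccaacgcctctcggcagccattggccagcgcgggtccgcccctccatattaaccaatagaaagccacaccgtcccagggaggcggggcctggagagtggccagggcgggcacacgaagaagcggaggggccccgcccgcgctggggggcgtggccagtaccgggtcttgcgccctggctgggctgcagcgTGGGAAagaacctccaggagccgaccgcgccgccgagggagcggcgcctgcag
Notch1, chr2:26503773-26504072, minus strand: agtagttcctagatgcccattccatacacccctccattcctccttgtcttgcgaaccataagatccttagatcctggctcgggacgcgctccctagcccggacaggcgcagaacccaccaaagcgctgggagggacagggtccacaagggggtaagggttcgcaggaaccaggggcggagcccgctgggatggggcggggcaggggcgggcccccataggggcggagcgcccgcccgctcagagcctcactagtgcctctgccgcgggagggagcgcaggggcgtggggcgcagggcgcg
Notch3, chr17:32166841-32167140, minus strand: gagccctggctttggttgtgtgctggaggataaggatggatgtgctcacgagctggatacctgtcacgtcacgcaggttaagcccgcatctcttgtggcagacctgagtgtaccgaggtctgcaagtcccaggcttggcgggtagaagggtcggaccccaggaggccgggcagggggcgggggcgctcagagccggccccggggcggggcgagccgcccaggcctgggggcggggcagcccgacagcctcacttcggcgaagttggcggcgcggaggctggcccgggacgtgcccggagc
Notch2, chr3:98013288-98013587, plus strand: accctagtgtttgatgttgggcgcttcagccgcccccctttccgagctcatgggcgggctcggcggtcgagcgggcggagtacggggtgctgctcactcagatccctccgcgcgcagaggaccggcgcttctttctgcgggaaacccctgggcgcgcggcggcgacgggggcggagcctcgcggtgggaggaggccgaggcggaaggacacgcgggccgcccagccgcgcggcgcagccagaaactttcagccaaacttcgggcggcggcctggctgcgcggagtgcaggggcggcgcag
A match is a description of letters and not of a bound site, and the lack of one says only that the letters are not in the window.

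By role, limma called 0 or 1 of the other pathway genes in each list, against 12.5% of all genes. Lists this short do not set a role apart from that share. Of 4 further ligands tested, limma called 0. An unadjusted p under 0.05 was found for 2 of them, Dll1 and Dner, against 5026 of the 14847 genes. Dlk1, a Delta-like protein that lacks the usual receptor-binding domain, had the brightest signal of them and a wide spread, with 7.71, 9.66 and 9.30 in Sox17f/f and 6.96, 7.57 and 8.16 in Sox17ed/ed uteri. The ranges overlapped, and the difference was -1.33 (SE 0.56, limma adjusted p = 0.153). Dll1, a classical Delta ligand, was lower by -0.41 on the log2 scale with its arrays apart (limma adjusted p = 0.112). Dner was well above background on all 3 Sox17f/f and on 0 of 3 Sox17ed/ed arrays, so it passed the filter only through the Sox17f/f arrays. By the same approximate bound as for Hes5, it was 1.90-fold lower in Sox17ed/ed uteri. The limma fit used the measured dim signals of Sox17ed/ed, does not test that bound, and did not call Dner (-1.74, limma adjusted p = 0.0584).

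Of the 8 tested genes of receptor processing, limma called 0, against 12.5% of all genes. An unadjusted p under 0.05 was found for 3 of the 8, against 5026 of the 14847 genes. The differences ran from -0.23 (Psen2) to 0.34 (Ncstn). Psenen, a gamma-secretase subunit and the brightest of them, differed by 0.16 (limma adjusted p = 0.203). Of the 5 glycosyltransferase genes, limma called 0 and 2 had an unadjusted p under 0.05. Rfng, a fringe enzyme that extends sugars on the receptors, was lowest at -0.32 (limma adjusted p = 0.0595), and Pofut1, which adds the first fucose, was highest at 0.26.

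Fbxw7 encodes the ubiquitin ligase subunit that marks the Notch intracellular domain for degradation. Of 13 genes of turnover and endocytosis, it alone was called, against 12.5% of all genes. It read 9.28, 9.01 and 8.72 in Sox17f/f and 8.29 and 8.06 in Sox17ed/ed replicates 1 and 3, since the spot of replicate 2 carried an outlier mark of the scanner software and was left out of the fit. On these 5 values Fbxw7 fell by 0.83 (SE 0.18, limma adjusted p = 0.0351). With the marked spot kept, as in the deposited table of processed values, the difference was 0.10 (SE 0.78, limma adjusted p = 0.944). A dimmer Fbxw7 probe, measured on all 6 arrays, gave -0.23 with the genotypes apart (limma adjusted p = 0.140 over all probes). Neurl1b, an endocytic ligase for the ligands and the brightest of the list, differed by 0.02.

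In the nuclear complex, limma called 0 of 15 tested genes, against 12.5% of all genes. An unadjusted p under 0.05 was found for 3 of the 15, against 5026 of the 14847 genes. Rbpj differed by -0.01 (95% confidence interval -0.26 to 0.24, limma adjusted p = 0.959), and the brightest, the corepressor Ctbp1, by 0.06 (limma adjusted p = 0.562). The histone deacetylase Hdac2 was lower by -0.31 on the log2 scale (limma adjusted p = 0.0390), under the fold threshold.

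**Figure D2:**
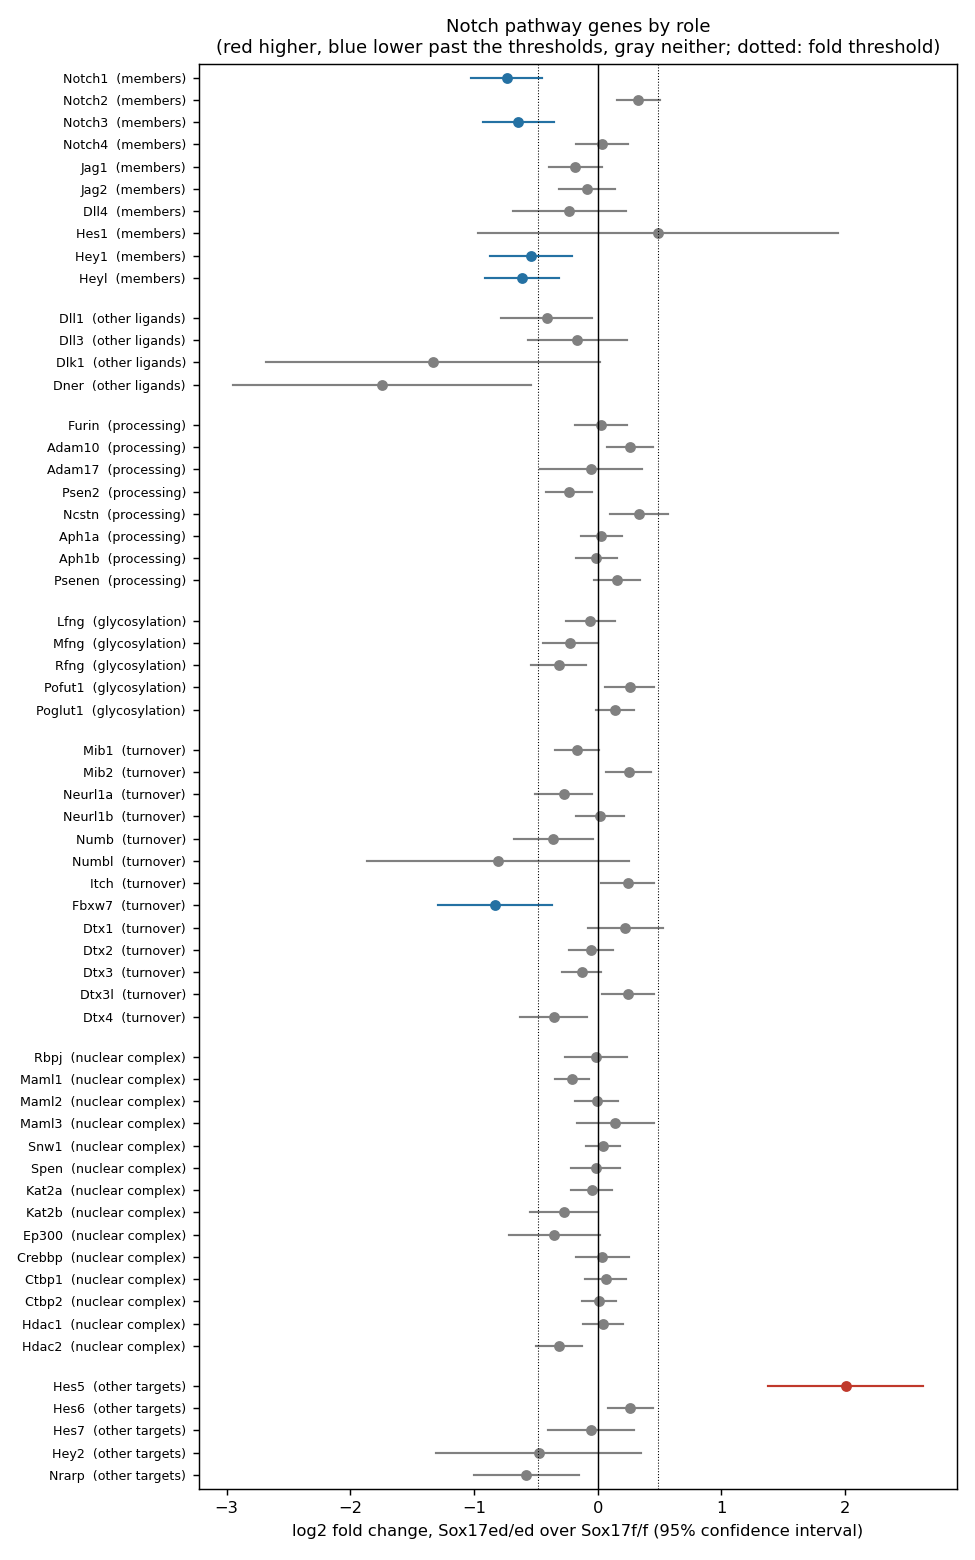
Log2 fold change of Sox17ed/ed over Sox17f/f (x axis) with its 95% confidence interval for the 10 genes and 49 of the other tested Notch pathway genes, ordered by role; blue is called lower, red called higher and gray neither, and the dotted lines mark a change of 1.4-fold. Blue genes are Notch1, Notch3, Hey1, Heyl and Fbxw7, Hes5 is the only red one, and the genes drawn of the nuclear complex lie between -0.35 and 0.14.

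Of 14 endothelial markers, 2 were called, 1 in each direction, against 12.5% of all genes: Esam was lower (-0.57, limma adjusted p = 0.0153) and Cldn5 higher (0.52, limma adjusted p = 0.0119). At an adjusted p under 0.05 and no fold threshold, 8 were lower and 1 higher, against 10.1% and 8.84% of all genes. The median log2 difference of the 14 was -0.31. Egfl7, the brightest endothelial marker and a secreted vessel protein, differed by -0.40 (limma adjusted p = 0.0105), and Robo4, also among the brightest, by -0.04 (limma adjusted p = 0.791). The summed signal of the 14 was 76880 to 79932 in Sox17f/f and 60272 to 65696 in Sox17ed/ed uteri, with no overlap. Such sums weigh the brightest probes most. This one is for the most part Egfl7, with mean log2 signals of 15.55 in Sox17f/f and 15.15 in Sox17ed/ed uteri. Of 9 markers of pericytes and vascular smooth muscle, here called pericyte markers, limma called 0 at their brightest probes. At an unadjusted p under 0.05 there were 4, all lower, against 2600 lower of the 14847 genes. Of the 9, 1, Rgs5, was lower at an adjusted p under 0.05 (-0.41, limma adjusted p = 0.0048), against 10.1% of all genes. Their median was -0.17, and their summed signal was 30176 to 30904 against 26473 to 26653. The brightest pericyte marker, Mcam, differed by -0.06 at its brighter probe, and Des, the third brightest after Rgs5, by -0.28. A dimmer Mcam probe differed by -0.58 with no overlap of the genotypes (limma adjusted p = 0.0723 over all probes). It was called lower in the fit over all probes, in which 9.85% of probes were called, so the result for Mcam depends on the probe. Smooth muscle markers had a median of -0.29 over 7 genes, 1 of them called lower (Actg2, -0.64), against 6.47% of all genes. Their summed signal was 489989 to 540873 in Sox17f/f and 364646 to 439473 in Sox17ed/ed uteri. In RNA of a whole organ, fewer cells of a type and less RNA per cell cannot be told apart, and the part of these cell types in the Notch results was not tested.

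The Notch genes were also set against these markers within each array, a comparison chosen after the values had been seen and given with no test. The mean log2 signal of the 14 endothelial markers differed by -0.25 between genotypes and that of the 9 pericyte markers by -0.20. Relative to the endothelial mean, Notch1 differed by -0.49, with an SD between arrays of 0.16 in Sox17f/f and 0.18 in Sox17ed/ed uteri (n = 3 each). Relative to the pericyte mean, Notch3 differed by -0.44, with an SD of 0.14 and 0.15 (n = 3 each). At their brightest probes, single endothelial markers spanned -0.57 to 0.52 and single pericyte markers -0.41 to -0.06. These values do not settle what part the cell types have.

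Heyl differed by -0.41 relative to the pericyte mean and by -0.36 relative to the endothelial mean, in the latter with overlap of the groups. Hey1 differed by -0.29 and -0.33 relative to the endothelial and pericyte means, with overlap in both. Notch4, level on its own, was higher by 0.28 relative to the endothelial mean. Jag1, Jag2 and Dll4 differed by 0.07, 0.16 and 0.02 relative to the endothelial mean, all with overlap. Notch2 was higher by 0.58 relative to the endothelial and by 0.54 relative to the pericyte mean.

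Markers of the epithelium, where the deletion lies, moved in both directions. Of 10, 4 were called higher and 1 lower, against 6.04% and 6.47% of all genes. The keratins Krt19 (2.10), Krt7 (1.46) and Krt8 (0.69) and the cadherin Cdh1 (0.59) were higher, and the tight junction gene Cldn3 was lower (-1.16). Krt18, one of the brightest, differed by -0.16. Their median was 0.02, and their summed signal was 48514 to 50366 in Sox17f/f and 51306 to 63551 in Sox17ed/ed uteri. Stromal and leukocyte markers, 7 and 6 tested genes, had medians of 0.03 and 0.15, with 0 calls by limma. At an unadjusted p under 0.05 there were 3 and 2 of them, against 5026 of the 14847 genes. At an adjusted p under 0.05, 1 stromal marker was lower (Dcn, -0.42) and 1 leukocyte marker higher (Csf1r, 0.41), against 10.1% and 8.84% of all genes. The summed stromal signal was 311486 to 316928 in Sox17f/f and 275551 to 298105 in Sox17ed/ed uteri. That of the leukocyte markers was 14603 to 14915 and 17087 to 18698, so neither sum overlapped between genotypes. Of 3 tested squamous markers 1 was called, the keratin Krt5. Its tested probe was well above background on 0 of 3 Sox17f/f arrays and on all Sox17ed/ed arrays. Processed signals there were 224, 28.2 and 40.6, the first far above the others. Krt5 thus passed the filter only through the Sox17ed/ed arrays, where it was 5.25-fold higher by the approximate bound used for Hes5. A second Krt5 probe, well above background on Sox17f/f replicate 3 alone, was not tested. Its processed signals were 9.06, 7.59 and 22.3 in Sox17f/f and 10.1, 4.36 and 4.67 in Sox17ed/ed uteri. Krt14 differed by 0.30 and Trp63 by -0.12, and neither was called. The study's quantitative PCR, in contrast, gave higher Trp63 RNA in Sox17ed/ed than in Sox17f/f uteri, so this probe does not settle the change of Trp63. Of 4 tested exocrine pancreas markers, Cpa1 (-1.23) and Cel (-0.52) were called lower, against 6.47% of all genes. Of 5 adipocyte markers 2 were tested and of 7 granulosa and luteal markers 2, with 0 calls by limma and 1 and 0 genes at an unadjusted p under 0.05. The part of these cell types in the Notch results was not tested.

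**Figure D3:**
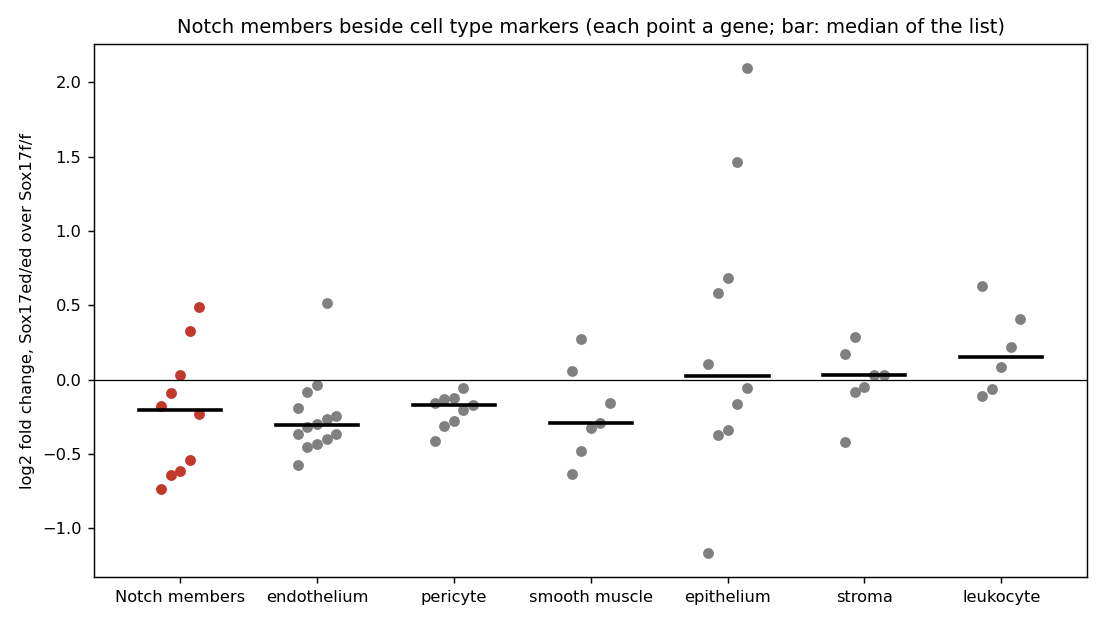
Log2 fold change of Sox17ed/ed over Sox17f/f (y axis) of the 10 Notch genes (red) and of the tested markers of 6 cell types (gray), each point a gene and each bar the median of its list. The bars of the Notch genes (-0.20), endothelium (-0.31), pericytes (-0.17) and smooth muscle (-0.29) lie below 0, and those of epithelium, stroma and leukocytes at or above it. The pericyte list also holds markers of vascular smooth muscle.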

How the data were processed

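Whole uteri of 3 Sox17f/f and 3 Sox17ed/ed mice were hybridized in 1 colour to Agilent G3 Mouse GE arrays, with groups and replicate numbers from the sample titles. The scanner files that the authors deposited give for every spot a processed signal, which is an intensity with the background subtracted and spatial trends corrected by Feature Extraction (version 11.0.1.1 per the file headers and 9.1 per the labels). Their deposited table of processed values, also intensities, was within 0.191% of the mean processed signal of each probe and was used as an alternative. Log2 intensities were quantile normalized as in the study's methods, control and outlier spots were left out, and spots of a probe were averaged.

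Of 55681 probes, 26582 were named through their accessions. A probe was tested if it was well above background on 3 or more of the 6 arrays, and each gene was read from its brightest tested probe. Between 56.8% and 65.7% of 59305 spots were well above background, 169 to 302 spots per array were left out as outliers, and the number of arrays limits the precision. The genotypes were compared in R 4.3.3 with limma 3.58.1 (lmFit and eBayes), p-values being adjusted by Benjamini-Hochberg, and single genes with an exact permutation test. A bound for a gene not well above background in 1 genotype uses, on each array of it, the higher of the gene's own signal and the lowest signal well above background. It is approximate, since that lowest signal is not a detection limit for every spot. The steps were tested on simulated data. Python 3.11.15, pandas 2.3.3 and matplotlib 3.10.9 served for motifs and plots.

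The 10 genes, the gene lists and the tests were chosen with earlier results of these data known. Named genes are the 10, the pathway genes called, the brightest uncalled gene of each pathway list, Sox17, and the called and up to 3 brightest endothelial, pericyte and epithelial markers; others were named after their values had been seen. Same-numbered replicates did not deviate together (correlations of 0.06, -0.11 and 0.00), so no pairing was used. The background alternative used the median spot signal, since the scanner output used here holds no mean signal. Results of some pathway genes are not reported here.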

Additional observations from a re-analysis of the deposited data

How the results depend on the processing

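Notch1 and Notch3 were called in all 16 refits (-0.80 to -0.62 and -0.73 to -0.56), Heyl in 14, Hey1 in 7 and Notch2 in 1, with the probe of smallest p (0.54); Notch2 was higher in all 16. Heyl was lost with an ordinary linear model (limma's moderation removed, adjusted p = 0.0712) and without Sox17f/f replicate 1. Hey1 was lost with normexp, no filter on low signal, the ordinary linear model, the replicate block and without Sox17f/f replicates 1, 2 or 3 or Sox17ed/ed replicates 1 or 2 (-0.59 to -0.44). When 1 array was left out, Hes1 ranged from -0.24 (without Sox17f/f replicate 3) to 0.68 and Notch4 from -0.032 (without Sox17ed/ed replicate 2) to 0.10. Of the 10 genes, 4 were called, against 2 with the ordinary linear model, 0 at a fold threshold of 2, and 2 to 4 when 1 array was left out (2 without Sox17f/f replicate 1). Of the other pathway genes, 2 were called, against 1 with no filter, the ordinary linear model, the deposited values or a fold threshold of 2, 0 where all 6 arrays had to be well above background, 4 at an adjusted p under 0.05, and 0 to 4 when 1 array was left out (1 without Sox17f/f replicate 2, 4 without Sox17f/f replicate 3, 1 without Sox17ed/ed replicate 1, 0 without Sox17ed/ed replicate 3; Hes5 could not pass the filter without any 1 Sox17ed/ed array). Of all genes, 1857 were called, 2808 at an adjusted p under 0.05 and 817 at a fold threshold of 2, and 1584 to 1946 when 1 array was left out. With the replicate number, which is also the slide column, as a block, 3 of the 10 genes were called (Hey1 lost, limma adjusted p = 0.0817). So were 3 other pathway genes (Dlk1, Fbxw7 and Hes5). Dll4 had a smaller SE with this block and was not called (-0.23, SE 0.07, limma adjusted p = 0.132). The numbers were not taken as pairs, and no sample numbered 2 or 3 correlated best with its own number. The scalings moved the median of all genes by at most 0.02. Other causes of lost calls were not tested. Signals near background limit Hes1, Hes5, Hey2 and Dner.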
